A study of Mus musculus with 11 samples.

Results

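Growth factor receptor kinases were followed through the livers of 2 mouse models of hepatoblastoma and of wild-type (WT) mice. The set was chosen by gene name and holds Egfr, Erbb2, Erbb3, Met, Fgfr1, Fgfr2, Fgfr3, Fgfr4, Insr and Igf1r. Its members were found by matching the transcript accession of each array probe that is not a control to mouse RefSeq symbols. All 10 genes were found, on 19 of 55681 probes, and each had a probe above background on all 11 arrays. They are 10 of the 22281 items that were tested, an item being a gene with a symbol or an accession without one.

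Liver RNA of 11 male mice was measured on 1-colour Agilent arrays, and the labels divide the mice into 4 WT, 3 β-catΔEx3 and 4 β-catΔEx3:Myc. β-catΔEx3 is a β-catenin without the stretch encoded by exon 3, which normally carries the phosphorylation sites that mark the protein for degradation. The transcription factor Myc promotes cell growth and division. All groups shared a mixed background of B6SJL with a little 129S6, none was treated, and ages were given as 22 to 40 days, with exact ages for 1 mouse of each group (31 days for WT, 30 days for β-catΔEx3 and 29 days for β-catΔEx3:Myc). The labels name neither the promoter nor the Cre that drives the transgenes, and the series calls all of these livers tumour-bearing, WT included, without saying whether tumour was taken. Its design text counts the last group only as expressing c-Myc, so that these livers carry both changes rests on their labels.

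A growth factor receptor kinase spans the cell membrane and signals as a pair, which in most cases a ligand activates from outside. Inside, it phosphorylates itself and its adaptors. The signal then runs through Ras and Erk to cell division and through PI3K and Akt to growth and metabolism. In hepatocytes, Egfr and Met carry the main mitogenic signals of liver regeneration, Insr carries the insulin signal, and Fgfr4 with its co-receptor Klb receives the gut hormone that limits bile acid synthesis.

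Signals are given as multiples of the array's upper quartile, the 75th percentile of its processed signal over all probes, which lay between 193 and 304 scanner units. Since probes differ in how brightly they bind, a level was compared between groups for 1 probe and never between probes. The summed signals of marker lists are the exception, as they add different probes. The share of probes well above background ranged from 47.8% to 52.4% over the arrays, with no saturated spots. The arrays lay on 4 slides: WT replicates 1 to 3 made up slide 1, both mutant groups shared slide 2 with 2 arrays each, β-catΔEx3:Myc replicate 3 was alone on slide 3, and slide 4 held 1 array of each group. Slide and genotype were therefore partly confounded, and values fitted with the slide as a block are given for a receptor gene where they change its call and as counts for the pathway lists. The targeted genes gave this check: Ctnnb1 differed from WT by -0.17 and -0.18 on the log2 scale in the mutant groups (adjusted p = 0.423 and 0.347, limma), and Myc was higher by 3.36 ± 0.68 (SE) in β-catΔEx3:Myc (adjusted p = 0.00286) and 2.835-fold higher in β-catΔEx3 without passing the test (adjusted p = 0.132). Where the Ctnnb1 probe lies relative to exon 3 is not known here, so its level checks nothing about the deletion.

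In β-catΔEx3 livers, 5 of the 10 receptor genes fell against WT and none rose. These were Egfr, Fgfr2, Fgfr3, Fgfr4 and Erbb2. In bulk liver RNA, fewer cells of a type and less RNA per cell cannot be told apart. In β-catΔEx3:Myc livers the same 5 genes fell, together with Igf1r and Fgfr1, and again none rose. A gene is called here at an adjusted p under 0.05 in limma's moderated test, with Benjamini-Hochberg adjustment over all items. Over all items, 15.4% were called lower in β-catΔEx3 and 17.3% in β-catΔEx3:Myc. The median log2 fold change of the 10 genes was -0.47 and -0.94, against 0.10 and 0.13 over all items. How the arrays are scaled moves the balance of calls: 4849 items were called higher and 3440 lower in β-catΔEx3, and 5537 and 3858 in β-catΔEx3:Myc, but 3413 and 4661, and 4433 and 4740, with the percentile taken over the probes above background on all arrays. The median of all items was then -0.08 and -0.01, and Met (-0.62, adjusted p = 0.0353, limma) and Igf1r (-0.60, adjusted p = 0.0231) were called lower in β-catΔEx3 too. With the slide as a block, 3 receptor genes remained called in each comparison, Egfr, Fgfr2 and Fgfr3, where 3.91% and 4.45% of all items were called lower. Between the mutant groups no receptor gene was called by limma, and 0.206% of all items were called lower and 0.130% higher. At an unadjusted p under 0.05 there were 3 receptor genes in that comparison, Fgfr1, Fgfr3 and Igf1r, all lower in β-catΔEx3:Myc. Of all items, 5.43% were lower at that unadjusted p.

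**Figure D1:**
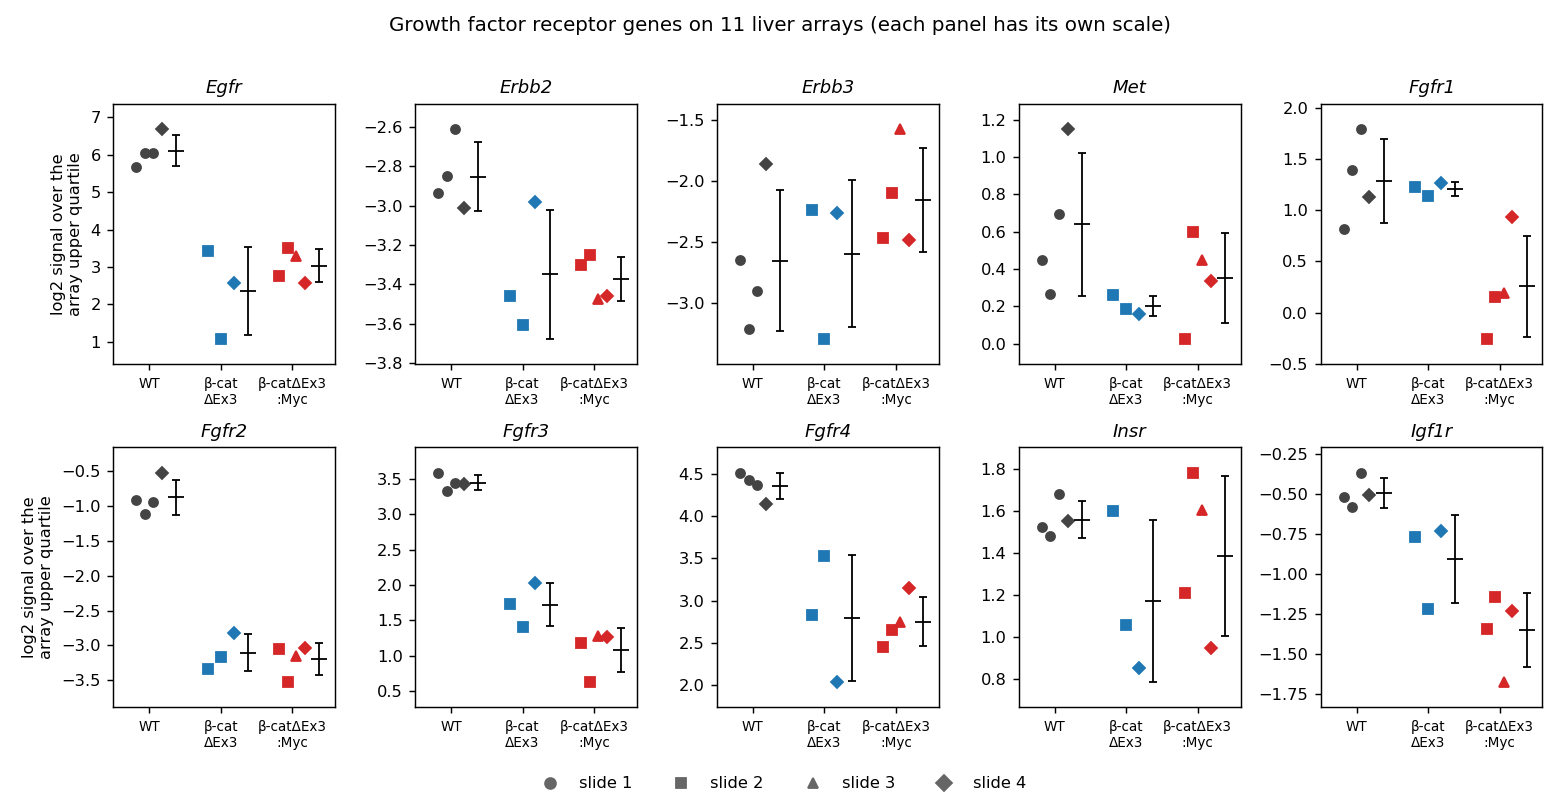
Level of each receptor gene on the 11 arrays, as the log2 of the signal over the array's upper quartile, with a separate vertical scale in each panel. Each point is 1 liver, its shape gives the slide, and the bar gives the group mean with its SD. For Egfr, Fgfr2, Fgfr3, Fgfr4 and Igf1r every mutant liver lies below every WT liver.

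The sequences just before the start of receptor genes are shown because β-catenin and Myc act through short DNA motifs. Of the 7 genes with a window, 6 were called lower in β-catΔEx3:Myc, all but Met, beside 17.3% of all items. In β-catΔEx3 all but Met and Igf1r were called lower, beside 15.4% of all items. The windows are the 250 bases before the annotated start, from RefSeq on GRCm38.p6, which held 8 windows for 7 of the 10 genes (Egfr, Erbb2, Met, Fgfr2, Fgfr3, Fgfr4 and Igf1r). Capitals mark matches on either strand to the core bound by the Tcf/Lef partners of β-catenin (CTTTGA), to the E-box bound by Myc and its relatives (CACGTG), and to the GC box (GGGCGG). The windows lie at chr11:16751953-16752202 (plus strand) for Egfr, chr7:130266809-130267058 (minus strand) for Fgfr2, chr5:33721474-33721723 (plus strand, the first of 2 windows) for Fgfr3, chr13:55152568-55152817 (plus strand) for Fgfr4 and chr7:67952007-67952256 (plus strand) for Igf1r.
Egfr: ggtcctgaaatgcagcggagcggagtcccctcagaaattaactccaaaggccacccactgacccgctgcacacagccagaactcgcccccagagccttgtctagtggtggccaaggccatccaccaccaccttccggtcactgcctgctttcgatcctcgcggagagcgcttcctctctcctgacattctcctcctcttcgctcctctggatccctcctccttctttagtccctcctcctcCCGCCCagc
Fgfr2: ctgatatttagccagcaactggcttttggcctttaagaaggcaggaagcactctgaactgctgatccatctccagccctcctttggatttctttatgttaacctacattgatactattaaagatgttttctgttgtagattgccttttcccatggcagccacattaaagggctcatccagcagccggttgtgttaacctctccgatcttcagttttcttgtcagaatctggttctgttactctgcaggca
Fgfr3: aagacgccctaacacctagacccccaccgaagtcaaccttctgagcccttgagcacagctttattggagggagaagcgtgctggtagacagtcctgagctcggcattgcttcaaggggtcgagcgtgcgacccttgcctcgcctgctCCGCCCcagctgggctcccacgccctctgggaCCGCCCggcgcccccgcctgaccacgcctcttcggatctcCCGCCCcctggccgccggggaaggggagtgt
Fgfr4: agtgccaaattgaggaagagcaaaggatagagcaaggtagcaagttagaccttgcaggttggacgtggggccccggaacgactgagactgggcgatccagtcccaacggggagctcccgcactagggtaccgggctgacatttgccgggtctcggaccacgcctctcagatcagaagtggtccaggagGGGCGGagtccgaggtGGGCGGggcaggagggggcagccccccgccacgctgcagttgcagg
Igf1r: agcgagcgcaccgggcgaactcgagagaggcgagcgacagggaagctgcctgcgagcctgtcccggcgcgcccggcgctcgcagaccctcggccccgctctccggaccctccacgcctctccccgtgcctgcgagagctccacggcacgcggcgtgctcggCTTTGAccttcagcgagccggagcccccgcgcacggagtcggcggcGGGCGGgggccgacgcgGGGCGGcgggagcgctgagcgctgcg

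The Tcf/Lef core was found in 1 of the 8 windows, that of Igf1r, starting 89 bases before the start, and in 13.8% of all 32817 windows of this length. An E-box was found in 1 of the 8, that of Met, and in 6.02% of all windows. GC boxes were found in 6 of the 8, all but those of Erbb2 and Fgfr2, and in 32.7% of all windows, and in the second Fgfr3 window 2 of them overlap. In the Egfr window the GC box starts 9 bases before the start, and in the Fgfr4 window there are 2, at 62 and 46 bases. The Fgfr2 window stood apart in base composition, with 44.0% G and C where the other 7 held 60.8% to 77.6% and the median of all windows was 52.4%. These matches describe letters in a window and were not tested as binding sites.

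Egfr, the receptor of Egf, Tgfa and amphiregulin, showed the largest difference from WT among the 10 genes. The 4 WT livers gave 51.1, 66.7, 65.8 and 103 times the upper quartile. The 3 β-catΔEx3 livers gave 10.68, 2.12 and 5.93, and the 4 β-catΔEx3:Myc livers 6.76, 11.4, 9.83 and 5.94. The highest mutant value was thus far below the lowest WT value, and the mutant groups overlapped each other. The log2 fold change was -3.76 ± 0.48 (SE) in β-catΔEx3 (13.6-fold lower, adjusted p = 0.00033, limma) and -3.08 ± 0.44 in β-catΔEx3:Myc (8.48-fold lower, adjusted p = 0.000438). Only 0.768% and 1.38% of all items had a lower fold change. With the slide as a block the differences were -4.41 and -3.83 (adjusted p = 0.0307 and 0.0444, limma), and within slide 4 both were -4.12. β-catΔEx3 replicate 2 was the lowest liver of all, and without it the β-catΔEx3 difference was -3.12 (adjusted p = 0.000397). β-catΔEx3:Myc exceeded β-catΔEx3 by 0.68 ± 0.48, with a 95% confidence interval of -0.38 to 1.74 (adjusted p = 0.71).

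The 3 Egfr probes, which name 2 RefSeq transcripts, gave like differences. In a fit over 29693 single probes they were -3.76, -3.98 and -3.96 in β-catΔEx3 and -3.08, -3.62 and -3.55 in β-catΔEx3:Myc, with every mutant liver below every WT liver on each probe. The probe used for the gene is printed in 10 spots per array, whose log2 values had an SD of 0.042 to 0.072.

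Erbb2 and Erbb3, which pair with Egfr and with each other, stood apart from it. Erbb2 has no known ligand of its own, and its 4 WT livers gave 0.131, 0.139, 0.164 and 0.124 times the upper quartile, the 3 β-catΔEx3 livers 0.0910, 0.0820 and 0.127, and the 4 β-catΔEx3:Myc livers 0.101, 0.105, 0.0898 and 0.0911. All β-catΔEx3:Myc livers lay below WT, while 1 β-catΔEx3 liver, on slide 4, lay within the WT range. The Erbb2 signals were low, 19.8 to 42.0 scanner units. The 10 spots of the probe on each array had a log2 SD of 0.128 to 0.391. The log2 fold changes were -0.50 ± 0.18 (adjusted p = 0.0481, limma) and -0.52 ± 0.16 (adjusted p = 0.0261). Both calls were lost with the slide as a block (-0.21 and -0.20, adjusted p = 0.693 and 0.702), and the first was lost when any array but β-catΔEx3 replicate 3 was left out (adjusted p = 0.0516 to 0.154). The second was lost without WT replicate 2 or 3, or β-catΔEx3:Myc replicate 3 or 4 (adjusted p = 0.0540 to 0.0774). Erbb3, the neuregulin receptor with little kinase activity of its own, gave 0.160, 0.108, 0.134 and 0.276 in WT, 0.212, 0.102 and 0.209 in β-catΔEx3, and 0.181, 0.233, 0.335 and 0.179 in β-catΔEx3:Myc. Its groups overlapped, and its differences from WT of 0.06 ± 0.37 and 0.50 ± 0.34 were not called (adjusted p = 0.923 and 0.273), both with a negative sign once the slide was a block (-0.64 and -0.39).

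Met, the receptor of hepatocyte growth factor, gave 1.37, 1.20, 1.62 and 2.22 times the upper quartile in WT livers. The β-catΔEx3 livers gave 1.20, 1.14 and 1.12, each below every WT liver but by little, and the β-catΔEx3:Myc livers 1.02, 1.51, 1.36 and 1.26, within and below the WT range. Neither difference was called (-0.44 ± 0.22, adjusted p = 0.137, and -0.29 ± 0.20, adjusted p = 0.276, limma). The 95% confidence intervals ran from -0.92 to 0.04 and from -0.73 to 0.16. With the slide as a block the Met differences were larger, -0.96 and -0.84, and still not called (adjusted p = 0.0981 and 0.131, limma). Within slide 4 they were -0.99 and -0.81.

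The 4 Fgf receptors separated into 3 that fell in both mutant groups and Fgfr1. Fgfr2 gave 0.530, 0.463, 0.523 and 0.700 times the upper quartile in WT livers, 0.0987, 0.112 and 0.142 in β-catΔEx3 and 0.121, 0.0865, 0.112 and 0.122 in β-catΔEx3:Myc. The mutant groups lay on top of each other, well below WT. The log2 fold changes were -2.24 ± 0.20 (4.72-fold lower, adjusted p = 4.21e-05, limma) and -2.32 ± 0.18 (5.01-fold lower, adjusted p = 1.46e-05), and -2.36 and -2.46 with the slide as a block (adjusted p = 0.00621 and 0.00574). With normexp background correction they were -1.20 and -1.23 (adjusted p = 5.13e-05 and 1.77e-05). A second Fgfr2 probe was well above background on the 4 WT arrays and on no mutant array. For a bound, each mutant array was set to the lowest signal of any probe that passed as above background on it. Fgfr2 was then 3.71-fold lower in β-catΔEx3 and 4.12-fold lower in β-catΔEx3:Myc. That lowest signal is not a detection limit for every probe, so these bounds are approximate.

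Fgfr3 differed little among WT livers and fell in both mutant groups. The WT livers gave 12.04, 10.03, 10.84 and 10.77 times the upper quartile, the β-catΔEx3 livers 3.33, 2.66 and 4.06, and the β-catΔEx3:Myc livers 2.27, 1.54, 2.42 and 2.41. On this probe the 3 groups were fully separated in that order. The differences from WT were -1.72 ± 0.20 (3.30-fold lower, adjusted p = 0.000209, limma) and -2.36 ± 0.19 (5.13-fold lower, adjusted p = 1.46e-05). β-catΔEx3:Myc lay below β-catΔEx3 by 0.64 on the log2 scale, a difference of -0.64 ± 0.20 that was not called (adjusted p = 0.258) but had the same sign on slide 2 (-0.67) and slide 4 (-0.75). The second Fgfr3 probe gave -1.67 and -2.13 against WT and -0.45 ± 0.34 between the mutant groups, which overlapped on it: β-catΔEx3 gave 0.167, 0.107 and 0.256 times the upper quartile and β-catΔEx3:Myc 0.0828, 0.109, 0.120 and 0.199.

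Fgfr4 gave 22.8, 21.5, 20.6 and 17.8 times the upper quartile in WT, 7.12, 11.5 and 4.09 in β-catΔEx3 and 5.49, 6.28, 6.72 and 8.84 in β-catΔEx3:Myc. No mutant liver reached the WT range, and the β-catΔEx3 livers spread the most. The log2 fold changes were -1.57 ± 0.30 (2.96-fold lower, adjusted p = 0.00291, limma) and -1.61 ± 0.28 (3.06-fold lower, adjusted p = 0.0013). With the slide as a block they kept their size (-1.54 and -1.58) and lost their calls (adjusted p = 0.137 and 0.127). The order of the mutant groups turned with the slide: β-catΔEx3:Myc was lower by 0.63 on slide 2, a difference of -0.63, and higher by 1.11 on slide 4. The second Fgfr4 probe gave -1.54 and -1.56 against WT. Klb, the co-receptor of Fgfr4 in hepatocytes, did not pass the test in either group (-0.15 ± 0.17, adjusted p = 0.522, and -0.25 ± 0.16, adjusted p = 0.23).

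Fgfr1, which in many tissues is the Fgf receptor of stromal cells, gave 1.77, 2.64, 3.47 and 2.19 in WT, 2.35, 2.20 and 2.41 in β-catΔEx3 and 0.837, 1.11, 1.14 and 1.91 in β-catΔEx3:Myc, as multiples of the upper quartile. β-catΔEx3 livers lay inside the WT range (-0.07 ± 0.29, adjusted p = 0.863, limma), while β-catΔEx3:Myc livers were below β-catΔEx3 and overlapped WT by 1 liver. Against WT the β-catΔEx3:Myc difference was -1.03 ± 0.27 (2.05-fold lower, adjusted p = 0.0101). It was -0.50 with the slide as a block (adjusted p = 0.531). The 3 Fgfr1 probes, all of 1 RefSeq transcript, disagreed: the others gave -0.95 (adjusted p = 0.08) and 0.05 (adjusted p = 0.841) in the fit over single probes, and the mean of the probes gave -0.64 (adjusted p = 0.0529). Against β-catΔEx3 the difference was -0.96 ± 0.29 (adjusted p = 0.223), with -1.24 on slide 2 and -0.33 on slide 4. The other 2 probes gave -0.94 and 0.04 there, and on both the mutant groups overlapped.

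**Figure D2:**
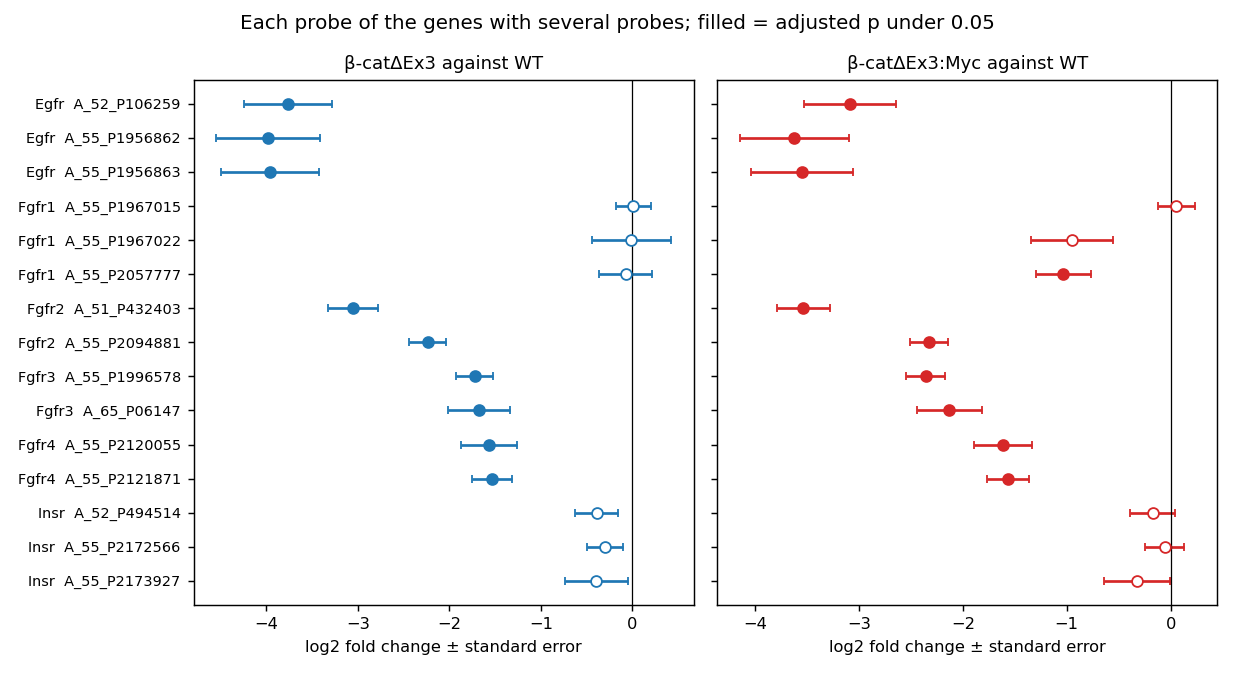
Log2 fold change against WT for each probe of the genes with several probes, with its standard error, in β-catΔEx3 (left) and β-catΔEx3:Myc (right). Probes of Egfr, Fgfr3 and Fgfr4 lie close together, those of Fgfr1 do not in β-catΔEx3:Myc, and the Fgfr2 probe at -3.05 and -3.54 was not above background in mutant livers, so its fitted value is not a measured fold.

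Of the insulin family receptors, Igf1r fell in β-catΔEx3:Myc and Insr was not called in either group. Insr gave 2.88, 2.79, 3.21 and 2.94 times the upper quartile in WT, 3.03, 2.08 and 1.80 in β-catΔEx3 and 2.31, 3.45, 3.04 and 1.93 in β-catΔEx3:Myc. Mutant livers spread below, across and above the narrow WT range, and neither difference was called (-0.39 ± 0.23, adjusted p = 0.214, and -0.17 ± 0.22, adjusted p = 0.547, limma). None of the 3 Insr probes was called in either comparison. Igf1r, the receptor of Igf1, gave 0.697, 0.666, 0.775 and 0.704 in WT, 0.586, 0.429 and 0.602 in β-catΔEx3 and 0.393, 0.451, 0.312 and 0.426 in β-catΔEx3:Myc. Both mutant groups lay below WT without overlap. The differences were -0.41 ± 0.18 (adjusted p = 0.0892) in β-catΔEx3 and -0.86 ± 0.16 (1.81-fold lower, adjusted p = 0.00209) in β-catΔEx3:Myc. The second was -0.64 with the slide as a block (adjusted p = 0.177).

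Without overlap, 6 receptor genes lay below WT in β-catΔEx3 (Egfr, Met, Fgfr2, Fgfr3, Fgfr4 and Igf1r) and 6 in β-catΔEx3:Myc (Egfr, Erbb2, Fgfr2, Fgfr3, Fgfr4 and Igf1r). Of all items, 18.6% and 17.7% did so. Between the mutant groups Fgfr1 and Fgfr3 were lower in β-catΔEx3:Myc without overlap, as were 4.58% of all items. That separation was seen on the probe that stands for each gene and not on the other Fgfr1 and Fgfr3 probes. Both comparisons with WT share the same 4 WT livers, so their likeness is no second observation.

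**Figure D3:**
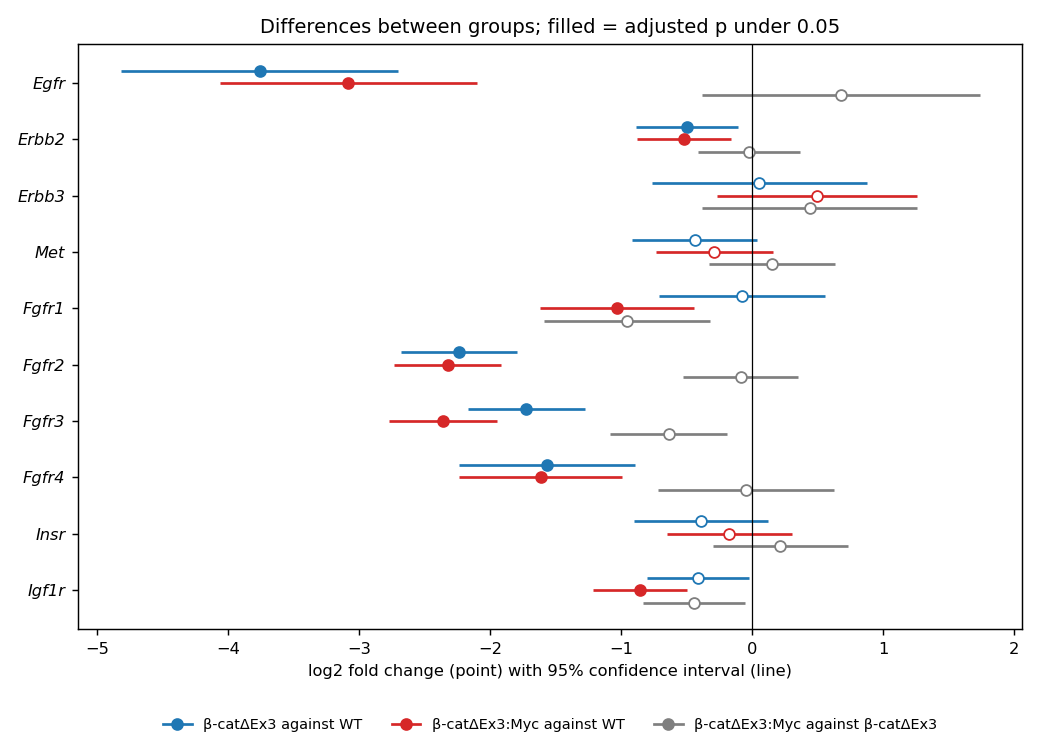
Log2 fold change of the 10 receptor genes (points) with its 95% confidence interval (lines) in the 3 comparisons; filled points passed an adjusted p under 0.05. Egfr is farthest from 0, Fgfr2, Fgfr3 and Fgfr4 follow between -1.57 and -2.36, and all grey points, for β-catΔEx3:Myc against β-catΔEx3, are open.

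Over the 11 arrays, the log2 values of Fgfr2 and Fgfr3 had the highest correlation among the 45 pairs of receptor genes (Pearson r = 0.964), and 0.641 after each group's mean was removed. Egfr and Fgfr2 had r = 0.90 overall and -0.10 within groups, and Egfr and Fgfr4 had r = 0.75 overall and -0.59 within groups. All these points share their arrays, slides and group differences. Among 13954 other genes with a symbol, the pattern of Egfr was most like that of Slc17a2 (r = 0.978, 0.94 within groups), Gprc5c (0.973) and Cyp2d13 (0.969). The genes most like Fgfr2 were Mfhas1 (r = 0.992), Cryl1 (0.991) and Serpina9 (0.989). For Fgfr3 these were Fam43a (r = 0.989), Tmem63a (0.986) and Epha7 (0.984), the last of which was above background on 4 of 4 WT, 1 of 3 β-catΔEx3 and 0 of 4 β-catΔEx3:Myc arrays, so its r rests partly on background values. Fgfr4 was followed most closely by Khk (r = 0.986, 0.928 within groups), the enzyme that phosphorylates fructose, then Aadac (0.981) and Mbl2 (0.978), which encodes a mannose-binding lectin made by hepatocytes. The nearest genes were Ncoa3 (r = 0.973), Elk3 (0.970) and Slc12a5 (0.965) for Igf1r, Hip1 (0.917), Itprid2 (0.909) and Arrb2 (0.909) for Erbb2, and Cldnd1 (0.922), Afap1l1 (0.915) and Fam167b (0.912) for Fgfr1. Within groups, the r of all these nearest genes with their receptor gene ran from 0.683 (Serpina9) to 0.94 (Slc17a2).

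Among the ligands of these receptors, 17 of 30 listed genes were measured. In β-catΔEx3, 5 rose and 3 fell, and in β-catΔEx3:Myc 6 rose and 3 fell. Among all items, 21.8% and 24.9% were called higher, and 15.4% and 17.3% lower. Igf1, the ligand of Igf1r that the liver supplies to the blood, gave 166 to 199 times the upper quartile in WT, 23.1 to 26.6 in β-catΔEx3 and 5.06 to 8.07 in β-catΔEx3:Myc, with no overlap between any groups. It fell by 2.82 in β-catΔEx3 (log2 fold change -2.82 ± 0.17, adjusted p = 5.21e-06, limma), by 4.73 in β-catΔEx3:Myc, and was 3.75-fold lower in β-catΔEx3:Myc than in β-catΔEx3 (adjusted p = 0.00224). Hgf, the ligand of Met, fell in both groups (-1.31 ± 0.29 and -2.23 ± 0.27), and so did Fgf1 (-2.90 ± 0.63 and -2.92 ± 0.58). The Hgf and Fgf1 calls were lost with the slide as a block, under which 2 ligands rose and 1 fell in β-catΔEx3, and 4 rose and 1 fell in β-catΔEx3:Myc. Of all 22281 items, 947 were then called higher and 872 lower in β-catΔEx3, and 946 and 992 in β-catΔEx3:Myc.

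Of the Egfr family ligands measured, 4 rose in both groups, Nrg1, Tgfa, Egf and Btc, and 3 were not called, Hbegf, Nrg2 and Nrg4. Nrg1, the neuregulin that binds Erbb3, gave 0.137 to 0.273 times the upper quartile in WT, 3.41 to 9.44 in β-catΔEx3 and 0.871 to 2.95 in β-catΔEx3:Myc. Its log2 fold changes were 4.91 ± 0.46 (adjusted p = 6.09e-05, limma) and 2.82 ± 0.43 (adjusted p = 0.000605), and both calls held with the slide as a block (adjusted p = 0.0124 and 0.0444). Tgfa and Egf, ligands of Egfr, rose by 0.87 and 1.15 in β-catΔEx3 and by 0.69 and 1.83 in β-catΔEx3:Myc, and Btc, which binds Egfr too, rose by 2.21 and 1.42. None of these 3 was called with the slide as a block. Hbegf, another ligand of Egfr, had log2 fold changes of 0.37 ± 0.22 (adjusted p = 0.215, limma) and 0.19 ± 0.20 (adjusted p = 0.482). The neuregulin Nrg2 gave 0.57 ± 0.99 (adjusted p = 0.687, limma) and 1.41 ± 0.91 (adjusted p = 0.242), and Nrg4 gave -0.93 ± 0.62 (adjusted p = 0.265) and -1.32 ± 0.57 (adjusted p = 0.0894). Fgf23, a hormone otherwise made by bone, rose by 2.69 ± 0.29 and 1.69 ± 0.27, with its calls kept under the block (adjusted p = 0.00893 and 0.0297). Igf2, a fetal growth factor that binds Igf1r, was above background on 1 of 4 WT arrays, on none of 3 β-catΔEx3 arrays and on all 4 β-catΔEx3:Myc arrays, where it gave 0.165 to 9.56 times the upper quartile. It was called higher in β-catΔEx3:Myc against WT (adjusted p = 0.0027, limma). Its difference between the mutant groups was not called (adjusted p = 0.0639, limma). With β-catΔEx3 arrays set to the lowest signal that passed as above background, Igf2 was 45.2-fold higher in β-catΔEx3:Myc, an approximate bound.

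Of 12 measured co-receptors and related receptors (16 listed), 2 rose and 3 fell in β-catΔEx3, and 4 rose and 3 fell in β-catΔEx3:Myc. For all items the shares were 21.8% higher and 15.4% lower in β-catΔEx3, and 24.9% and 17.3% in β-catΔEx3:Myc. Fgfrl1, an Fgf receptor without a kinase domain, rose 2.53-fold and 2.15-fold (adjusted p = 0.000242 and 0.00032, limma). Igf2r, which clears Igf2, rose by 1.07 and 1.03 on the log2 scale. Sdc2 and Gpc4, heparan sulfate carriers that hold Fgfs at the cell surface, fell (-1.70 and -1.54 in β-catΔEx3, -1.53 and -1.32 in β-catΔEx3:Myc). Plxnb1, a semaphorin receptor that can pair with Met, fell in β-catΔEx3 (-0.91). Mst1r, the kinase most like Met, differed from WT by 0.01 in β-catΔEx3 and rose by 1.78 ± 0.25 in β-catΔEx3:Myc, where it was also above β-catΔEx3 (1.77 ± 0.27, adjusted p = 0.0297). Nrp1 fell (-2.11) and Gpc3, a fetal liver glypican, rose (3.09 ± 0.74) in β-catΔEx3:Myc. For neither was the difference between the mutant groups called (adjusted p = 0.15 and 0.0747). Under the slide block, 1 member rose and 1 fell in β-catΔEx3, and 2 rose and 2 fell in β-catΔEx3:Myc. The block called 947 of all 22281 items higher and 872 lower in β-catΔEx3, and 946 and 992 in β-catΔEx3:Myc.

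The adaptors and kinases inside the cell pass the signal on from the receptors. Of 16 measured adaptors (19 listed), 1 rose and 2 fell in β-catΔEx3 and 2 fell in β-catΔEx3:Myc. The exchange factor Sos1, which loads Ras with GTP, fell in both (-0.65 ± 0.20 and -1.17 ± 0.18), as did Dok1 (-1.22 and -0.95), and Shc2 rose in β-catΔEx3 (1.15). Of 21 measured kinases and PI3K subunits of the Ras-Erk and PI3K-Akt chains (22 listed), 2 rose and 2 fell in β-catΔEx3 and 2 fell in β-catΔEx3:Myc. Pik3r1, the regulatory subunit of PI3K, fell in both (-1.47 ± 0.25 and -1.92 ± 0.23), while Mapk3, an Erk kinase, rose in β-catΔEx3 (0.60). Over all items, 21.8% were called higher and 15.4% lower in β-catΔEx3, and 24.9% and 17.3% in β-catΔEx3:Myc. With the slide as a block, no member of either list was called in β-catΔEx3, and 1 of each was called lower in β-catΔEx3:Myc, Sos1 among the adaptors. Of all 22281 items, the block called 947 higher and 872 lower in β-catΔEx3, and 946 and 992 in β-catΔEx3:Myc.

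Inhibitors and attenuators dampen the receptors or the signal behind them. Of 27 measured (30 listed), 9 fell and none rose in β-catΔEx3, and 10 fell and 1 rose in β-catΔEx3:Myc. Of all items, 15.4% and 17.3% were called lower, and 21.8% and 24.9% higher. The median log2 fold change of the list was -0.41 and -0.29. With the slide as a block 1 and 3 members were called lower, beside 3.91% and 4.45% of all items. Among them, Lrig1, which directs Egfr family receptors to degradation, fell by 1.01 (2.01-fold lower) in β-catΔEx3 and by 1.09 in β-catΔEx3:Myc. The receptor-like phosphatases Ptprf and Ptprj fell in both (-1.02 and -0.68 in β-catΔEx3, -1.03 and -1.04 in β-catΔEx3:Myc). So did Inpp5d, a lipid phosphatase of blood cells (-1.53 and -1.64), and Dcn, a matrix proteoglycan of stromal cells that binds Egfr (-0.79 and -1.79).

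The called read-outs of the pathway went both ways. Of 15 measured Erk response genes (19 listed), 1 rose and 1 fell in β-catΔEx3, and 2 rose and 2 fell in β-catΔEx3:Myc. Their median log2 fold change was -0.32 in each group, against 0.10 and 0.13 over all items. Etv1, an Ets factor, fell in both (-0.99 ± 0.18 and -2.15 ± 0.17) and was lower in β-catΔEx3:Myc than in β-catΔEx3 (-1.15 ± 0.18, adjusted p = 0.0352, limma). Dusp4, a phosphatase that acts on Erk, rose in β-catΔEx3 (2.74 ± 0.68), and in β-catΔEx3:Myc Ier3 (1.23) and Fosb (0.64) rose and Spred1 (-0.95) fell. Of 14 measured genes that process ligands and receptors (15 listed), 4 rose and 2 fell in β-catΔEx3, and 3 rose and 2 fell in β-catΔEx3:Myc. Beside these 2 lists, 21.8% of all items were called higher and 15.4% lower in β-catΔEx3, and 24.9% and 17.3% in β-catΔEx3:Myc. Hgfac, the protease that activates Hgf, fell in both (-2.75 ± 0.32 and -2.13 ± 0.30), as did F12 (-0.74 and -0.52). Spint2, an inhibitor of that activation, rose (1.15 and 1.06), as did Plat (1.73 and 2.04) and Rhbdf2 (1.25 and 1.40), and Rhbdf1 rose in β-catΔEx3 (1.16). Rhbdf1 and Rhbdf2 are inactive rhomboids that guide the protease which sheds Egfr ligands. Under the slide block, Etv1 was the 1 Erk response gene called, in β-catΔEx3:Myc. Among the processing genes 2 then fell in β-catΔEx3 (Hgfac and F12) and 1 rose in β-catΔEx3:Myc (Rhbdf2). Over all 22281 items, 947 were called higher and 872 lower in β-catΔEx3 with the block, and 946 and 992 in β-catΔEx3:Myc.

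**Figure D4:**
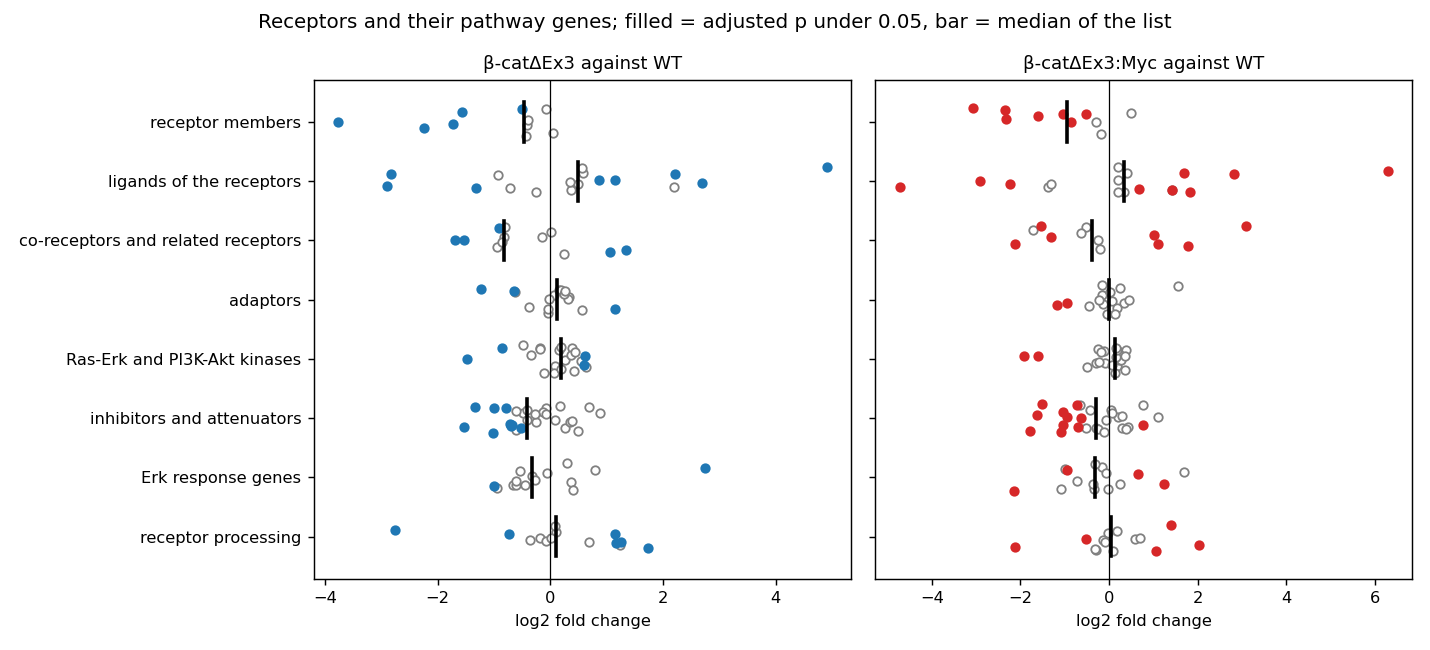
Log2 fold change against WT of each measured gene in the receptor set and 7 pathway lists, in β-catΔEx3 (left) and β-catΔEx3:Myc (right); each point is 1 gene, filled points passed an adjusted p under 0.05 and the bar is the median of the list. The receptor set has filled points only below 0, while ligands have them on both sides.

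Markers of other cell types, and of hepatocytes, were measured in the same RNA. Their counts stand beside shares of all items of 21.8% called higher and 15.4% lower in β-catΔEx3, and 24.9% and 17.3% in β-catΔEx3:Myc. Hepatocyte markers were all above background on all arrays. Their summed signal was 7327 to 9041 times the upper quartile in WT, 4749 to 6350 in β-catΔEx3 and 4645 to 7021 in β-catΔEx3:Myc, with 5 of 11 called lower in β-catΔEx3, and 3 higher and 4 lower in β-catΔEx3:Myc. Macrophage markers fell in both groups (11 of 11 called lower in each), from sums of 288 to 443 in WT to 25.4 to 74.6 and 21.6 to 80.7. Endothelial markers were called lower in 7 and 8 of 12, with sums of 149 to 172 in WT, 76.5 to 98.1 in β-catΔEx3 and 43.8 to 63.4 in β-catΔEx3:Myc. Stellate and fibroblast markers, among them Hgf and Dcn, were called lower in 5 and 9 of 12, with sums of 110 to 197, 95.8 to 99.8 and 36.2 to 69.1. Under the slide block, no macrophage marker was called in either group. Endothelial markers then had 0 and 4 called lower, stellate and fibroblast markers 1 and 3, and hepatocyte markers 1 in each group. The block left 3.91% and 4.45% of all items called lower.

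The other lists were lymphocyte, biliary, granulocyte and erythroid markers. For comparison, 21.8% of all items were called higher and 15.4% lower in β-catΔEx3, and 24.9% and 17.3% in β-catΔEx3:Myc. Of 8 lymphocyte markers 6 were called lower in each group and 1 higher in β-catΔEx3:Myc, with sums of 62.2 to 73.8 in WT, 19.9 to 43.9 in β-catΔEx3 and 25.2 to 51.7 in β-catΔEx3:Myc, and 3 and 2 of them below background on all mutant arrays of the group. Biliary markers had 1 of 8 called higher in β-catΔEx3 and 1 lower in β-catΔEx3:Myc, with sums of 6.84 to 16.6, 5.51 to 42.1 and 9.27 to 31.5. Of 9 granulocyte markers 1 rose and 1 fell in β-catΔEx3 and 2 rose and 1 fell in β-catΔEx3:Myc, with sums of 9.47 to 14.8, 6.60 to 16.3 and 10.3 to 98.0, and 2 below background in β-catΔEx3. Of 7 erythroid markers 1 rose and 2 fell, then 2 rose and 1 fell, with sums of 414 to 759, 46.9 to 158 and 39.3 to 665, and 1 below background in β-catΔEx3. Under the slide block, 1 lymphocyte marker was called lower in each group and 1 erythroid marker higher in each. In β-catΔEx3:Myc 2 granulocyte markers were then called higher, and no biliary marker was called in either group. Among all 22281 items, the block called 947 higher and 872 lower in β-catΔEx3, and 946 and 992 in β-catΔEx3:Myc. The part of all these markers in the differences of the receptor genes was not tested. The summed signals of hepatocyte, macrophage, endothelial, stellate and lymphocyte markers lay below WT without overlap in both mutant groups. Such a sum adds different probes and follows the brightest, so it does not speak for each marker. In WT, Cd4 alone gave 41.7 to 64.3 of the lymphocyte sum. Against the 6 lymphocyte markers called lower, Cd3e had mean log2 levels of 0.68 in WT, 1.00 in β-catΔEx3 and 1.54 in β-catΔEx3:Myc. Among hepatocyte markers, where 5 and 4 were called lower, Asgr2 had 7.99, 8.51 and 8.64.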

How the data were processed

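RNA of 11 livers was measured, 1 array each. Per the labels' protocols, total RNA was labelled with Cy3 for 1-colour Agilent arrays. Version 10.7.1.1 of Agilent Feature Extraction produced the signals, per the submitters' processing notes. The authors deposited scanner files of processed, background-subtracted signal in intensity units with flags for each spot, and a table of log2 values whose columns each have a median of 4.51. How that table was scaled is not given in the sources used here, and it served as an alternative.

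Outlier spots were dropped, and the remaining spots of a probe (55681 probes) were averaged as log2 values. Each array's 75th percentile was subtracted. A probe was kept if 3 or more arrays had it well above background, which 29693 did. Accessions were matched to a RefSeq table (26582 probes matched, 29099 did not and were treated as items of their own), and the probe with the highest mean stood for a gene, which left 22281 items. Genome positions of probes are not given here. The array's annotation and the RefSeq table differ in build, and no genome was used.

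The 3 group means were estimated together over the 11 arrays with limma 3.58.1 in R 4.3.3 (residual degrees of freedom 8, prior 2.52). The 2-sided p-values were adjusted over all items by Benjamini-Hochberg and called at 0.05, and the fit was tested on simulated data. The p-values set each group difference against the spread between livers of a group, and the number of arrays limits the precision. They treat the livers as independent. The labels number the mice but do not say how they were bred or sampled, so that independence is not known. The members, lists and rules were chosen with earlier results of these data known. Named genes are every receptor gene, up to 4 genes of each list with the smallest adjusted p among those called, the 3 genes most correlated with each receptor gene called against WT, and Ctnnb1 and Myc. A few others (Fgf1, Btc, Hbegf, Nrg2, Nrg4, Igf2, Klb, Plxnb1, Gpc3, F12, and Plat in β-catΔEx3) were named after their values were seen. A few genes of the lists are not reported here by name. Alternatives were other scalings, normexp with an offset of 50, the authors' log2 table, other probe filters and rules, slide blocks and leaving out each array.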

Additional observations from a re-analysis of the deposited data

Results flagged for a closer look

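Of the 20 groups of 4 livers examined for the 10 receptor genes, 1 held a liver far from the others. For Fgfr3, β-catΔEx3:Myc replicate 2 gave 1.54 times the upper quartile where the other 3 livers gave 2.27, 2.42 and 2.41. Its gap to the nearest was 0.856 of the group's range on the log2 scale, above Dixon's 95% limit for 4 samples. Chance flags about 1 in 20 groups.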

How the results depend on the processing

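The counts of receptor genes called, 5, 7 and 0 in the 3 comparisons, stayed within 1.5 times under every alternative run except the slide as a fixed block, which gave 3 in β-catΔEx3 and 3 in β-catΔEx3:Myc. Leaving out 1 array gave 4 to 5, 6 to 7 and 0. Egfr, Fgfr2 and Fgfr3 were called against WT in all 10 other settings and in all leave-outs. Erbb2 in β-catΔEx3 kept its call in 4 of 10 settings. Signs turned for genes that were not called. With the percentile over detected probes, Erbb3 in β-catΔEx3 was -0.13 and Erbb2 between the mutant groups 0.023. With the slide as a block, Erbb3 was -0.64 and -0.39 against WT, Fgfr1 in β-catΔEx3 0.44 and Erbb2 between the mutant groups 0.012. Over the leave-outs, Erbb3 in β-catΔEx3 ranged from -0.13 to 0.40 and Fgfr1 from -0.23 to 0.10. Between the mutant groups, Erbb2 ranged from -0.15 to 0.16, Fgfr2 from -0.20 to 0.058 and Fgfr4 from -0.43 to 0.32. Taking the mean of a gene's probes gave -2.93 for Fgfr2 in β-catΔEx3:Myc. The causes were not tested. No paired analysis was possible because the labels carry no number shared between groups. The 75 items called between the mutant groups became 10 when β-catΔEx3 replicate 3 was left out and rose to 181 when β-catΔEx3:Myc replicate 3 was. Since 1 WT array shares a slide with mutants, the blocked comparison with WT rests on slide 4.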
